A study of Mus musculus with 8 samples.

Results

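The ADAM genes of the mouse encode membrane proteins with a disintegrin and a metalloprotease domain. They were taken here as every gene on the array whose name in the scanner files is Adam followed by a digit, with the exception of Adam7. The rule gave 32 genes with 50 probes, of 55681 probes in all. It used names and no measured value, and it leaves out the related Adamts genes. The samples were whole testes of C57BL/6 mice, measured on 8 Agilent arrays with 1 Cy3-labelled RNA sample each. Wild type mice (Ip6k1+/+) and mice lacking both copies of Ip6k1 (Ip6k1-/-, called knockout) were littermates bred from Ip6k1+/- parents, and each genotype was sampled at 17 days postpartum (dpp, the younger age) and at 26 dpp (the older age). Values per array are given in the order replicate 1, replicate 2. This makes 4 groups of 2 arrays (n = 2), which the labels call biological replicates. The knockout is described by its genotype alone, with no tissue-specific driver, and the sources used here do not give the deleted part of the gene. Ip6k1 encodes inositol hexakisphosphate kinase 1, an enzyme that makes inositol pyrophosphates.

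ADAM proteins are made with a prodomain, which proprotein convertases such as furin cut off, and those with an intact zinc-binding site can cleave other membrane proteins. Adam10 and Adam17 are the best known of these sheddases: they release growth factors, cytokines, Notch receptors and cadherins from the cell surface. Many other members have lost the catalytic residues and act through binding, and in rodents a large group is made almost only in male germ cells. Of the latter, Adam1a, Adam1b and Adam2 (the fertilin subunits) and Adam3 (cyritestin) are needed for normal sperm surface assembly, for passage of sperm into the oviduct or for binding to the egg coat. In the first wave of mouse spermatogenesis spermatocytes are the most advanced germ cells at about the younger age sampled here and spermatids have been formed by the older one.

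Because many ADAM genes of germ cells arose as local copies, the sequences of the probes and of the promoters bear on which member a value belongs to. All 50 probes are 60 bases long. Of 1201 pairs of probes of different members, 1 pair shared a run of 15 or more bases, and the next longest shared run was 11 bases. That pair reads Adam25 and Adam39, which lie near each other on chromosome 8. The 30-base windows of the probes printed here hold the shared run of 21 bases in capitals, bases 22 to 51 of the Adam25 probe and bases 1 to 30 of the Adam39 probe.
Adam25: aaccCAAAGTTCCCACCCCAGAAAAcaaag
Adam39: CAAAGTTCCCACCCCAGAAAAgaaagaaga
The labelling reaction started from an oligo-dT primer, so probes near the 3′ end of a transcript were favoured. Of the 31 probes that stand for a tested member, 5 hold the poly(A) signal letters AATAAA, against 10.1% of all 55681 probes. Their 30-base windows are shown with these letters in capitals. They come from 2 germ cell members of chromosome 8 and from 3 members known from somatic cells or from many cell types.
Adam3: tacatgcctccaAATAAAgtctatggctga
Adam5: aaaccatgaactAATAAAtcagctatgact
Adam15: ctgctctgttgtAATAAAtgtgagatcttg
Adam17: ctgtgaattactAATAAAgctacgcacatg
Adam33: caggcttgcatcAATAAAgaaatgagacat

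RefSeq promoter windows on GRCm38.p6, from 250 bases before the start to 50 after it, were at hand for 17 of the 32 members, with 19 windows in all. Of the 168 pairs of windows of different members, 2 pairs were close copies of each other. The windows of Adam20 and Adam25 aligned over 298 columns with 284 identical bases (95.3%), 12 mismatches and 2 gap columns. The windows of Adam6a and Adam6b shared 199 identical bases in a row, shifted by the different annotated starts: the run begins at base −149 of Adam6a and at base −250 of Adam6b. The next closest pair, Adam25 and Adam26b, had 67.0% identity over 200 columns. These 4 windows are shown because each pair belongs to neighbouring genes whose levels are compared below. Capitals mark the letters of the MYB motif AACNGNC on either strand, N being any base. The Adam20 window is chr8:40793023-40793322 on the plus strand, Adam25 is chr8:40751958-40752257 on the plus strand, Adam6a is chr12:113543658-113543957 on the plus strand and Adam6b is chr12:113489315-113489614 on the plus strand.
Adam20: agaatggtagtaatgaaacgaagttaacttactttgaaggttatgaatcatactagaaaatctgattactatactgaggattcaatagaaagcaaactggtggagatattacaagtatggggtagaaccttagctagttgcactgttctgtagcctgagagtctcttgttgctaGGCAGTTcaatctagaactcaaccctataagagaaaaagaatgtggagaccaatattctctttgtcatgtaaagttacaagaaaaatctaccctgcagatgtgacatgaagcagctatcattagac
Adam25: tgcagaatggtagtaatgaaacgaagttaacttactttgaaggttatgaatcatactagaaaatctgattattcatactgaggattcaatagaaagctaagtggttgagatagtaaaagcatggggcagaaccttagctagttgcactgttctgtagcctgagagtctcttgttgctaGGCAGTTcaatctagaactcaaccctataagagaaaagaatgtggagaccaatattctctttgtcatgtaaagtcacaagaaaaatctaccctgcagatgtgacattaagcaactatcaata
Adam6a: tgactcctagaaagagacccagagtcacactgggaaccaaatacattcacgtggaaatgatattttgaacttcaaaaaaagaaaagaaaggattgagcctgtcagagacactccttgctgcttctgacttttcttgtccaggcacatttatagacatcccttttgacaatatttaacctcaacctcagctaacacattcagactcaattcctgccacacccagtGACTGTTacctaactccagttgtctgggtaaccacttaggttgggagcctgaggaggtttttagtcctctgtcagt
Adam6b: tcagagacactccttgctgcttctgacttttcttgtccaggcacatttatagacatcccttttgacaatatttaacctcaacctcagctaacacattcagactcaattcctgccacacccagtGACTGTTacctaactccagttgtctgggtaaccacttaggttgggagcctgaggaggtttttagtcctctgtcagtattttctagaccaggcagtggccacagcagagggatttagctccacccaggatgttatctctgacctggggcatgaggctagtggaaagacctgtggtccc
The motif stands at base −76 in Adam20 and at −72 in Adam25, and within the shared run at −26 in Adam6a and at −127 in Adam6b. It was present in 8 of the 19 windows, against 32.8% of 32851 windows of that length. The cAMP response element TGACGTCA was in 0 of the 19 (1.79% of all windows), the E-box CACGTG in 3 (7.15%) and the letters TATAAA in 3 (13.6%). The 8 windows with the MYB letters belong to members that rose with age (Adam1b, Adam20, Adam25, Adam29 and Adam6a), to members that fell (Adam8 and Adam15) and to Adam6b, so the letters did not separate these.

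All values below are log2 signals, scaled so that 0 is the 75th percentile of the array in question. Between 58.8% and 64.7% of probes per array were well above background, with the lowest share on knockout replicate 2 at 26 dpp. The median log2 signal of the spike-in control probes, before scaling, was 11.97 on that array, against 9.40 to 10.99 on the others. Across all genes (which are no independent replicates) the correlation within a group was 0.979 to 0.989, except for the older knockout group with 0.863. In that group replicate 2 was the array that stood apart. Its correlation with the younger arrays was 0.917 to 0.948, but only 0.839 and 0.873 with the older wild type arrays. Over the 31 tested ADAM genes alone the same array correlated at 0.616 with its own replicate, which itself correlated at 0.994 with each wild type array of 26 dpp. Its Ip6k1 signal, given below, was as low as on the other knockout arrays. Unlike the arrays of either age, it had a summed signal of 7 Leydig cell markers of 0.904, in units of the 75th percentile. The other arrays had 11.1 to 24.3. Whether its age label is right, or what else set it apart, was not tested. Counts of genes called at 26 dpp in knockout are therefore given with and without it. Of 10 Sertoli cell markers 9, and of 10 spermatocyte markers all 10, were well above background on all 8 arrays, as a testis sample should show. Epididymis markers were brighter in wild type at 17 dpp (summed signal 25.5 and 70.8, in units of the 75th percentile) than in knockout at that age (5.72 and 4.20), and adipocyte markers were brighter in wild type replicate 2 at 17 dpp (244, against 21.8 to 29.1 on the other 3 arrays of that age). Ip6k1 itself read 2.19 and 2.30 (wild type) and 1.36 and 1.49 (knockout) at the younger age, and 2.79 and 2.77 (wild type) and 1.41 and 1.30 (knockout) at the older age. It was lower on each knockout array than on any wild type array, and whether its probe lies in the deleted part is not known.

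The first question is how the family changes as the first spermatids form. In wild type testes 15 ADAM genes were higher at 26 than at 17 dpp and 7 were lower, of 31 tested (limma, adjusted p under 0.05). Over all 26597 genes tested, 18.9% were higher and 26.1% lower. Non-overlap of the wild type arrays is common with 2 per age. Of the 31 members, 20 lay wholly above and 11 wholly below at 26 dpp, against 32.1% and 55.8% of all genes. The median difference between ages was 4.42 on the log2 scale for the ADAM genes and −0.46 for all genes. It was 4.39 and −0.40 with each dim signal raised to that of the dimmest probe flagged well above background on its array. The 15 are known as genes of germ cells. For 8 of them both wild type arrays of 17 dpp were well above background, and their rises ran from 21.0-fold in Adam24 to 1656-fold in Adam3. For the other 7 at least 1 of these arrays was not, and the rise is given as a lower bound. The 7 lower genes are more widely expressed, with falls from 2.18-fold in Adam15 to 3.55-fold in Adam10. The epididymis signal of the wild type arrays of 17 dpp lies in this comparison too. Of 11 epididymis markers tested, 9 were lower and 1 higher at 26 dpp in wild type (median −5.83). Their summed signal, however, overlapped between the wild type ages (25.5 and 70.8 at 17 dpp, 21.8 and 47.1 at 26 dpp). In the older knockouts it was 29.8 and 2.38. The part of the epididymis signal in the falls was not tested. The filter on dim probes bears on the count of rising genes: 9 of the 31 members were kept only because they were well above background on the arrays of 26 dpp, and 7 of these are among the 15. The other 22 members were well above background on both arrays of a group at 17 dpp, and 8 of them were higher and 7 lower (14.2% and 28.3% of all 24567 genes that met this condition). With no filter, 20 of the 32 members were called (30.9% of all genes). Adam28, known from lymphocytes and the epididymis, was well above background on none of the 8 arrays with either of its 2 probes and was not tested. With any 1 of the 4 wild type arrays left out, 0 of the 31 were called, in fits that called 0% to 0.692% of all genes, and without knockout replicate 2 at 26 dpp the same comparison called 19 higher and 8 lower (25.4% and 43.7% of all genes).

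**Figure D1:**
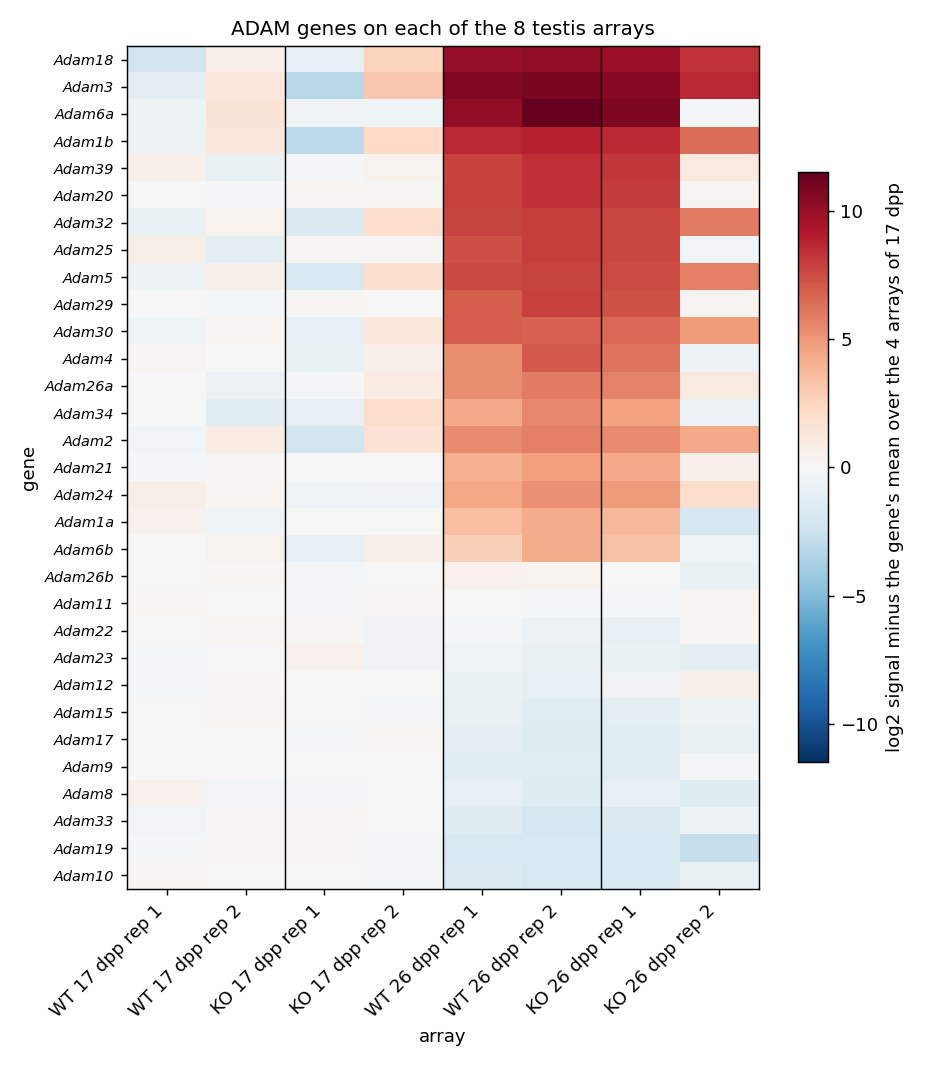
Signal of the 31 tested ADAM genes (rows) on each of the 8 arrays (columns), as log2 signal minus the gene's own mean over the 4 arrays of 17 dpp; red is higher and blue lower. Values at 17 dpp include probes that were not well above background. The upper 19 rows are red on 3 of the 4 arrays of 26 dpp, and knockout replicate 2 at 26 dpp is red in only some of them.

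The fertilin subunits and cyritestin come first, as the members whose part in sperm function is best known. Adam2, the beta subunit of fertilin, read −0.69 and 0.53 (wild type) and −2.56 and 1.33 (knockout) at the younger age, and 5.11 and 5.45 (wild type) and 5.13 and 4.05 (knockout) at the older age. All 4 arrays of 26 dpp lay above all 4 of 17 dpp, and in wild type the rise was 40.9-fold (log2 difference 5.35, SE 1.23, limma adjusted p = 0.0223). Adam3 read −5.00 and −2.64 (wild type) and −7.01 and −0.79 (knockout) at the younger age, and 6.77 and 6.98 (wild type) and 6.60 and 4.85 (knockout) at the older age. The ages did not overlap here either, the 2 knockout arrays of 17 dpp lay on opposite sides of the wild type arrays, and the rise in wild type was 1656-fold (10.69, SE 1.99, adjusted p = 0.0138). A second Adam3 probe was below −6 at 17 dpp in every group and read 1.96 and 2.33 on the older wild type arrays, so it too was higher at the older age.

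The alpha subunit of fertilin has 2 gene copies in the mouse. Adam1b, whose product pairs with Adam2 on the sperm surface, read −5.30 and −3.51 (wild type) and −7.77 and −2.45 (knockout) at the younger age, and 3.87 and 4.07 (wild type) and 3.85 and 1.67 (knockout) at the older age. It rose 332-fold in wild type (8.37, SE 1.75, adjusted p = 0.0177). Adam1a, whose product pairs with Adam2 inside germ cells, lies next to it, with probes 19.2 kb apart. It read −3.29 and −4.25 (wild type) and −3.75 and −3.71 (knockout) at the younger age, and −0.30 and 0.54 (wild type) and 0.00 and −5.64 (knockout) at the older age. The 2 copies differed on knockout replicate 2 at 26 dpp: Adam1b was above every array of 17 dpp there, while Adam1a was below every one and not well above background. The difference of Adam1a between ages in wild type was 3.89 (SE 1.68) and did not pass (adjusted p = 0.0980). Without knockout replicate 2 at 26 dpp its adjusted p was 0.00115.

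Adam18, Adam5 and Adam32 are sperm-lineage members that lie beside Adam3 on chromosome 8. Adam18 read −6.80 and −3.94 (wild type) and −5.51 and −1.99 (knockout) at the younger age, and 5.45 and 5.60 (wild type) and 5.28 and 3.78 (knockout) at the older age. With 1 of the 2 wild type arrays of 17 dpp well above background, its rise in wild type was at least 1276-fold (adjusted p = 0.00762). Here and below, such a bound takes for each dim array the higher of the probe's own signal and that of the dimmest probe flagged well above background on it. Adam5 read −2.42 and −1.31 (wild type) and −3.72 and 0.00 (knockout) at the younger age, and 5.73 and 5.92 (wild type) and 5.63 and 3.90 (knockout) at the older age. It rose 206-fold in wild type (7.69, SE 1.24, adjusted p = 0.0106). Adam32 read −1.57 and −0.36 (wild type) and −2.40 and 1.21 (knockout) at the younger age, and 6.97 and 7.13 (wild type) and 6.86 and 5.23 (knockout) at the older age. It rose 258-fold in wild type (8.01, SE 1.21, adjusted p = 0.00940). For these 3 genes, as for Adam2, Adam3 and Adam1b, knockout replicate 2 was the highest array of 17 dpp, and knockout replicate 2 of 26 dpp was the lowest array of 26 dpp. Adam30, another testis member, read −5.32 and −4.66 (wild type) and −5.84 and −3.63 (knockout) at the younger age, and 2.07 and 1.95 (wild type) and 1.70 and 0.05 (knockout) at the older age. It rose 128-fold (6.996, SE 0.84, adjusted p = 0.00685) and followed the same order of arrays.

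The members of the second chromosome 8 group, Adam24, Adam25, Adam20 and Adam39, include the testases, which are predicted proteases of the sperm surface. Adam24, known for a part in the block to polyspermy, read −1.87 and −2.34 (wild type) and −3.04 and −2.96 (knockout) at the younger age, and 1.90 and 2.67 (wild type) and 2.32 and −0.50 (knockout) at the older age. It rose 21.0-fold in wild type (4.39, SE 0.88, adjusted p = 0.0162), and knockout replicate 2 at 26 dpp lay between the ages. Adam25 read −5.02 and −6.71 (wild type) and −5.54 and −5.56 (knockout) at the younger age, and 1.67 and 2.28 (wild type) and 1.93 and −6.02 (knockout) at the older age. With 1 of the 2 wild type arrays of 17 dpp well above background, it rose at least 163-fold in wild type (adjusted p = 0.0400).

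Adam20, whose promoter window is nearly that of Adam25, read −7.73 and −7.80 (wild type) and −7.55 and −7.57 (knockout) at the younger age, and 0.17 and 0.75 (wild type) and 0.35 and −7.38 (knockout) at the older age. It was not well above background on either wild type array of 17 dpp, and its rise was at least 71.3-fold (adjusted p = 0.0322). Adam39 read −5.77 and −7.23 (wild type) and −6.47 and −5.92 (knockout) at the younger age, and 1.54 and 2.08 (wild type) and 1.81 and −5.23 (knockout) at the older age. Its rise was at least 182-fold (adjusted p = 0.0271). Adam25, Adam20 and Adam39 were not well above background on knockout replicate 2 at 26 dpp. The Adam25 and Adam39 probes share the 21 bases shown above, and what each contributes to the other's signal was not tested.

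Adam6a and Adam6b are copies that lie within the immunoglobulin heavy chain locus and are made in testis. Adam6a read −7.93 and −5.87 (wild type) and −7.77 and −7.82 (knockout) at the younger age, and 2.84 and 4.27 (wild type) and 3.43 and −7.59 (knockout) at the older age. It rose at least 610-fold in wild type (adjusted p = 0.0434). Adam6b read −3.65 and −3.21 (wild type) and −4.57 and −3.04 (knockout) at the younger age, and −0.87 and 0.68 (wild type) and −0.26 and −4.08 (knockout) at the older age. Its difference in wild type was 3.34 (SE 1.29) and did not pass (adjusted p = 0.0751), although both wild type arrays of 26 dpp lay above all 4 arrays of 17 dpp. Without knockout replicate 2 at 26 dpp its adjusted p was 0.00963. The probes of the copies share no run over 11 bases, but the full transcripts were not compared here, so a split of signal between the copies is uncertain.

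Of the remaining germ cell members, 3 rose. Adam29 read −7.78 and −7.94 (wild type) and −7.67 and −7.75 (knockout) at the younger age, and −0.86 and 0.11 (wild type) and −0.43 and −7.49 (knockout) at the older age. Its rise in wild type was at least 40.0-fold (adjusted p = 0.0328). Adam26a (testase 3) read −5.70 and −6.41 (wild type) and −5.96 and −4.81 (knockout) at the younger age, and −0.38 and 0.19 (wild type) and 0.00 and −4.71 (knockout) at the older age. It rose at least 48.6-fold (adjusted p = 0.0246). Adam21 read −4.39 and −4.03 (wild type) and −4.14 and −4.13 (knockout) at the younger age, and −0.12 and 0.54 (wild type) and 0.17 and −3.62 (knockout) at the older age. It rose 21.4-fold (adjusted p = 0.0279). On knockout replicate 2 at 26 dpp Adam29 was not well above background, and Adam26a and Adam21 were less than 0.5 above their highest array of 17 dpp.

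Adam4 and Adam34 (testase 4) did not pass in wild type. The older wild type arrays lay above all younger arrays for both, but the share of all genes that do so was not counted. Adam4 read −5.69 and −6.07 (wild type) and −6.79 and −5.42 (knockout) at the younger age, and −0.63 and 1.102 (wild type) and 0.17 and −6.60 (knockout) at the older age. Its level at 26 dpp was at least 61.2-fold that at 17 dpp (adjusted p = 0.0532). Adam34 read −6.65 and −7.91 (wild type) and −7.68 and −4.68 (knockout) at the younger age, and −2.37 and −1.25 (wild type) and −2.09 and −7.44 (knockout) at the older age. The fold was at least 14.8 (adjusted p = 0.0529). Without knockout replicate 2 at 26 dpp their adjusted p-values were 0.00141 and 0.00768. A second Adam34 probe read −1.34 and −0.16 in wild type at 26 dpp and was below −7.6 on all 4 arrays of 17 dpp.

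Adam26b is a close relative of Adam26a that did not pass between ages. It read −4.61 and −4.55 (wild type) and −4.83 and −4.57 (knockout) at the younger age, and −4.10 and −4.23 (wild type) and −4.58 and −5.39 (knockout) at the older age. The difference in wild type was 0.41 (SE 0.32, adjusted p = 0.314), while Adam26a, with a probe 50.5 kb away, rose as given above. Its 4 arrays of 17 dpp lay within 0.3 of each other.

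Grouping the members by position showed 6 groups of neighbours, with probes of adjacent members at most 200 kb apart on mm9, the build of the files. They hold 18 of the 32 members, and 13 members lie on chromosome 8. The largest group spans 347.6 kb (chr8:25712756-26060310) and holds Adam18, Adam3, Adam5, Adam32 and Adam9 in this order. The first 4 rose in wild type and Adam9, a widely expressed sheddase, fell (−1.25, SE 0.37, adjusted p = 0.0383). The next holds Adam24, Adam25, Adam20 and Adam39 (145.1 kb), all of which rose. Adam26b, Adam26a and Adam34 form a group of 130.6 kb, of which Adam26a alone passed. On chromosome 12, Adam4 and Adam21 lie 139.4 kb apart and Adam6b and Adam6a 54.9 kb apart, with 1 called member in each pair, as for Adam1b and Adam1a on chromosome 5. Exons and introns were not assigned to probes here, since no genome of this build was at hand.

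**Figure D2:**
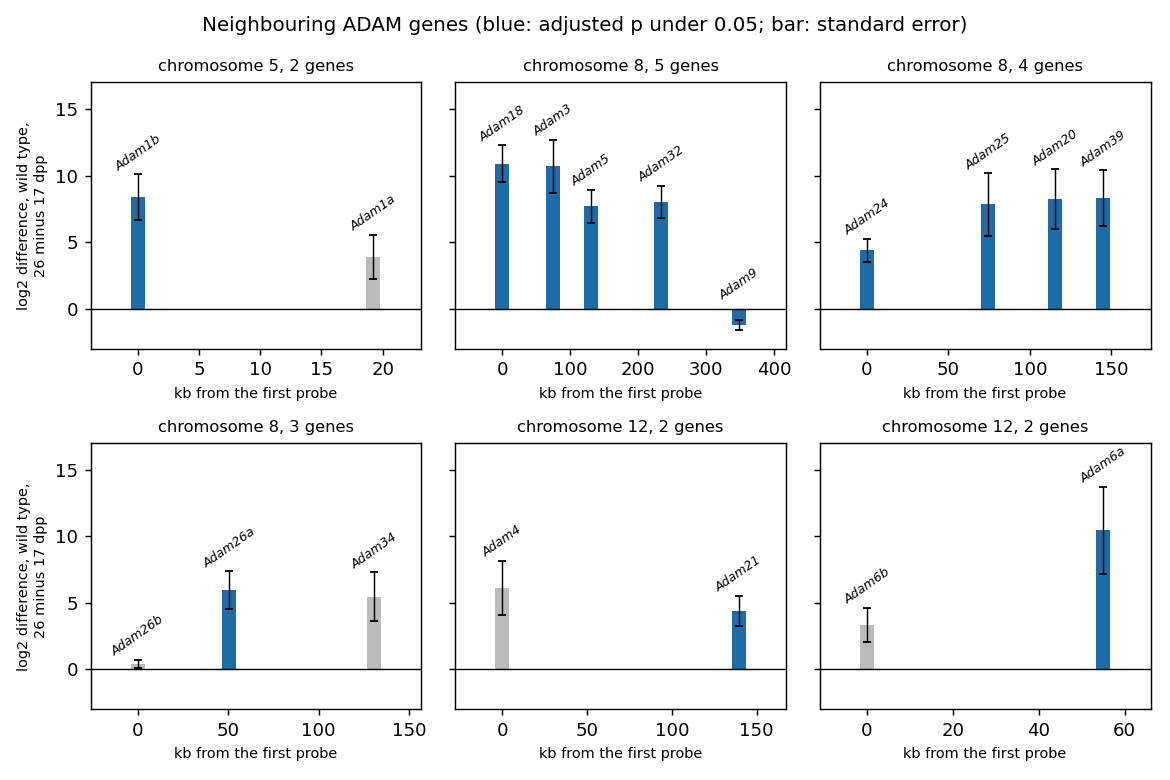
Log2 difference between 26 and 17 dpp in wild type (vertical, bars with standard error, 2 arrays per age) for the 18 ADAM genes in 6 groups of neighbours, placed by distance in kb from the first probe of the group. Bars are fitted differences, also for genes that were not well above background at 17 dpp. Blue bars passed an adjusted p of 0.05 and grey bars did not; 4 of the 5 genes of the largest group rise and Adam9 at its end falls.

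The 7 falling members are known from somatic cells or from many cell types. Which cells of these testes made their RNA was not tested. Adam10, the main sheddase of Notch receptors, read 3.94 and 3.76 (wild type) and 3.82 and 3.68 (knockout) at the younger age, and 2.13 and 1.92 (wild type) and 2.02 and 3.04 (knockout) at the older age. It fell 3.55-fold in wild type (log2 difference −1.83, SE 0.37, adjusted p = 0.0167). Adam17, which releases tumour necrosis factor and ligands of the epidermal growth factor receptor, read −2.43 and −2.40 (wild type) and −2.48 and −2.21 (knockout) at the younger age, and −3.51 and −3.76 (wild type) and −3.71 and −3.17 (knockout) at the older age. It fell 2.33-fold in wild type (−1.22, SE 0.28, adjusted p = 0.0219), and the ages did not overlap. A second Adam17 probe, which overlaps the first by 52 bases, was also lower on every array of 26 dpp. Adam9 read 3.19 and 3.12 (wild type) and 3.10 and 3.05 (knockout) at the younger age, and 1.88 and 1.94 (wild type) and 1.93 and 2.99 (knockout) at the older age. For Adam10 and Adam9 knockout replicate 2 at 26 dpp thus lay nearer to the arrays of 17 dpp than to the other arrays of its age.

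Adam19 (meltrin beta), known from heart and muscle development, read −0.16 and 0.29 (wild type) and 0.14 and −0.13 (knockout) at the younger age, and −1.69 and −1.72 (wild type) and −1.70 and −2.59 (knockout) at the older age. It fell 3.41-fold in wild type (−1.77, SE 0.36, adjusted p = 0.0169), and here knockout replicate 2 at 26 dpp was the lowest array of all. Adam33, a gene of smooth muscle and mesenchyme, read −1.25 and −0.67 (wild type) and −0.83 and −0.98 (knockout) at the younger age, and −2.31 and −2.94 (wild type) and −2.64 and −1.49 (knockout) at the older age. It fell 3.17-fold (−1.66, SE 0.46, adjusted p = 0.0335), and its other 2 probes were also lower at 26 dpp.

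Adam8, best known from leukocytes, read 0.80 and −0.01 (wild type) and 0.20 and 0.31 (knockout) at the younger age, and −0.66 and −1.06 (wild type) and −0.65 and −1.03 (knockout) at the older age. It fell 2.38-fold (−1.25, SE 0.35, adjusted p = 0.0342). Adam15, a widely expressed member, read 3.83 and 4.13 (wild type) and 3.84 and 3.71 (knockout) at the younger age, and 3.05 and 2.66 (wild type) and 2.77 and 3.26 (knockout) at the older age. It fell 2.18-fold (−1.12, SE 0.29, adjusted p = 0.0285). Adam12 (meltrin alpha) had a difference of −0.91 (SE 0.38) that did not pass (adjusted p = 0.0894). Without knockout replicate 2 at 26 dpp Adam12 passed (adjusted p = 0.00695). Summed signals of 10 Sertoli cell markers also fell in wild type, from 496 and 465 at the younger age to 227 and 204 at the older one. In the older knockouts they were 218 and 464. On replicate 2, the array with 464, Adam9, Adam10 and Adam33 were nearer to the younger wild type mean. Adam8, Adam15, Adam17 and Adam19 were nearer to the older one. The median log2 signal of the Sertoli cell markers was also lower at the older age in wild type (4.07 and 3.67, then 2.81 and 2.60), but on knockout replicate 2 it was the lowest of all (2.25, against 2.78 on replicate 1). Summed signals of 10 spermatogonium markers were 78.7 and 80.4 in wild type at the younger age and 21.0 and 19.2 at the older one, and in the older knockouts 21.7 and 82.6. Of 8 endothelial markers, 0 were higher and 6 lower at 26 dpp in wild type (median −1.29). Of 10 macrophage markers, 2 were higher and 0 lower (median −0.42). Over all genes 18.9% were higher and 26.1% lower. The part of any of these cell types in the falls was not tested. In whole testes fewer cells of a type and less RNA per cell cannot be told apart.

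Adam11, Adam22 and Adam23, catalytically inactive members known from the nervous system, where they bind LGI proteins, did not pass in wild type. Adam11 read −0.59 and −0.70 (wild type) and −0.94 and −0.58 (knockout) at the younger age, and −0.71 and −0.80 (wild type) and −0.95 and −0.42 (knockout) at the older age. Its difference in wild type was −0.11 (SE 0.28, adjusted p = 0.755), the nearest to 0 of the family on the probes that stand for the genes. A second, dimmer Adam11 probe went the other way. In wild type it read −2.87 and −2.85 at the younger age and −2.46 and −1.92 at the older age, and its ages did not overlap. Adam23 read −1.55 and −1.28 (wild type) and −0.86 and −1.72 (knockout) at the younger age, and −1.83 and −2.24 (wild type) and −2.14 and −2.45 (knockout) at the older age. Every array of 26 dpp lay below those of 17 dpp, with a difference in wild type of −0.62 (SE 0.36, adjusted p = 0.193). Dimmer Adam23 probes overlapped between ages in wild type. A probe well above background on 5 arrays read −3.66 and −4.62, then −4.57 and −6.07. Another, well above background on 6 arrays, read −6.20 and −4.73, then −4.86 and −5.35. Adam22 read −2.47 and −2.29 (wild type) and −2.41 and −2.93 (knockout) at the younger age, and −2.75 and −3.23 (wild type) and −3.47 and −2.30 (knockout) at the older age. Its ages overlapped, and the difference in wild type was −0.61 (SE 0.45, adjusted p = 0.280).

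In knockout testes 8 ADAM genes were higher and 2 lower at 26 than at 17 dpp (limma, adjusted p under 0.05), of 31 tested. Over all genes tested, 7.62% were higher and 8.18% lower. The 8 were Adam1b, Adam2, Adam3, Adam5, Adam18, Adam24, Adam30 and Adam32, and the 2 were Adam17 and Adam19. All 10 had also passed in wild type. The rise was 3.91 (SE 0.88) for Adam24, 5.20 for Adam2, 6.63 for Adam5 and 6.64 for Adam32. Knockout replicate 1 at 17 dpp was not well above background for the other 4, which rose by at least 5.42 (Adam30), 6.72 (Adam1b), 8.26 (Adam18) and 8.86 (Adam3). Adam19 fell by 2.15 (SE 0.36) and Adam17 by 1.09 (SE 0.28). The call depends on the array that stood apart: without knockout replicate 2 at 26 dpp, 19 members were higher and 6 lower in knockout (21.5% and 38.1% of all genes). The median difference of the members then was 4.30, against 2.41 with all arrays.

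**Figure D3:**
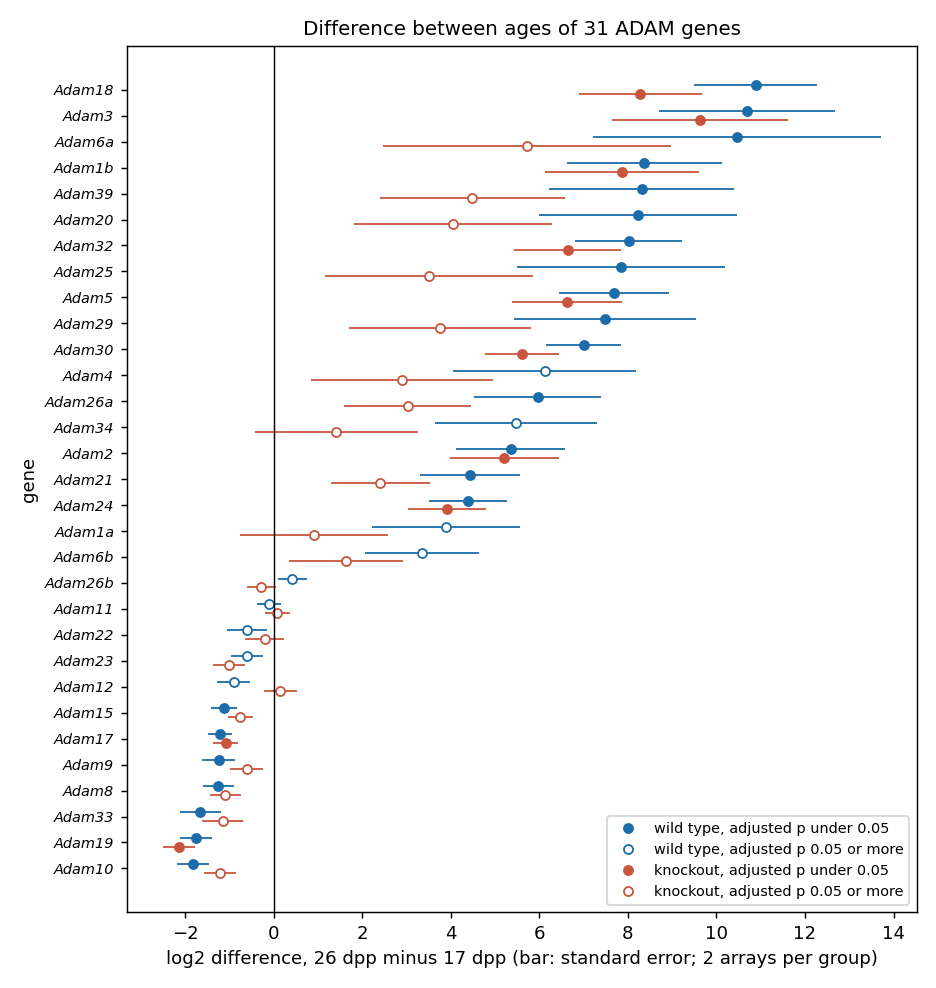
Log2 difference between 26 and 17 dpp (horizontal, with standard error, 2 arrays per group) of the 31 tested ADAM genes in wild type (blue) and knockout (red). Filled points passed an adjusted p of 0.05: 22 in wild type and 10 in knockout. Points are fitted differences, also where a group was not well above background, for which the text gives bounds.

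The array that stood apart did not treat the rising members alike. For each member the signal of an array of 26 dpp was placed on a scale between the wild type means, with 0% at 17 dpp and 100% at 26 dpp. These groups were seen in the values and are a description with no test. Knockout replicate 1 lay at 95.5% to 102% for the 15 members called higher in wild type. Replicate 2 lay at 81.1% for Adam3, 77.3% for Adam32, 77.1% for Adam2, 75.1% for Adam5, 72.5% for Adam1b and 72.0% for Adam30, and at 36.5% for Adam24 and 13.5% for Adam21. These 8 were well above background on all arrays used. For Adam18 and Adam26a the place also rests on dim arrays of 17 dpp: it was 84.0% and 22.5%, and 83.1% and 17.6% with the dim signals raised to the floor used for the bounds. Adam39, Adam29, Adam20, Adam25 and Adam6a were not well above background on replicate 2, so that their place has no exact value. With the floor it was 0.914% to 7.21%. The 7 members Adam18, Adam3, Adam32, Adam2, Adam5, Adam1b and Adam30 were thus nearer to the older age and the other 8 nearer to the younger one.

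Marker genes of germ cell stages, chosen with earlier results of these data known, also lay at different places on that array. This too is a description with no test. Of 10 spermatocyte markers, 8 had a higher mean at 26 than at 17 dpp in wild type; their median place was 69.9%. The 10 round spermatid markers and 10 elongating spermatid markers had medians of 6.52% and 4.96% (4.40% and 4.97% with the floor; 3 of each 10 were not well above background on the array). All 5031 genes called higher in wild type had a median place of 48.4% (46.6% with the floor). At the older age summed elongating spermatid markers were 524 and 1467 (wild type) and 786 and 0.659 (knockout), the last on replicate 2. Among the arrays of 17 dpp the same 7 members were higher on knockout replicate 2 than on replicate 1, by 3.89 for Adam2, 3.72 for Adam5 and 3.61 for Adam32, and by at least 4.68 for Adam3, 3.48 for Adam18, 3.02 for Adam1b and 1.84 for Adam30, for which replicate 1 was not well above background. The median of the spermatocyte markers was −0.30 on the former and −2.22 on the latter. Adam21 and Adam24 differed by less than 0.1 between these arrays, and Adam20, Adam25, Adam29, Adam39 and Adam6a were well above background on neither. Adam26a went with the 7 here: it was higher on replicate 2 by at least 0.66, with replicate 1 not well above background. What part the stage of the germ cells had in these values was not tested.

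**Figure D4:**
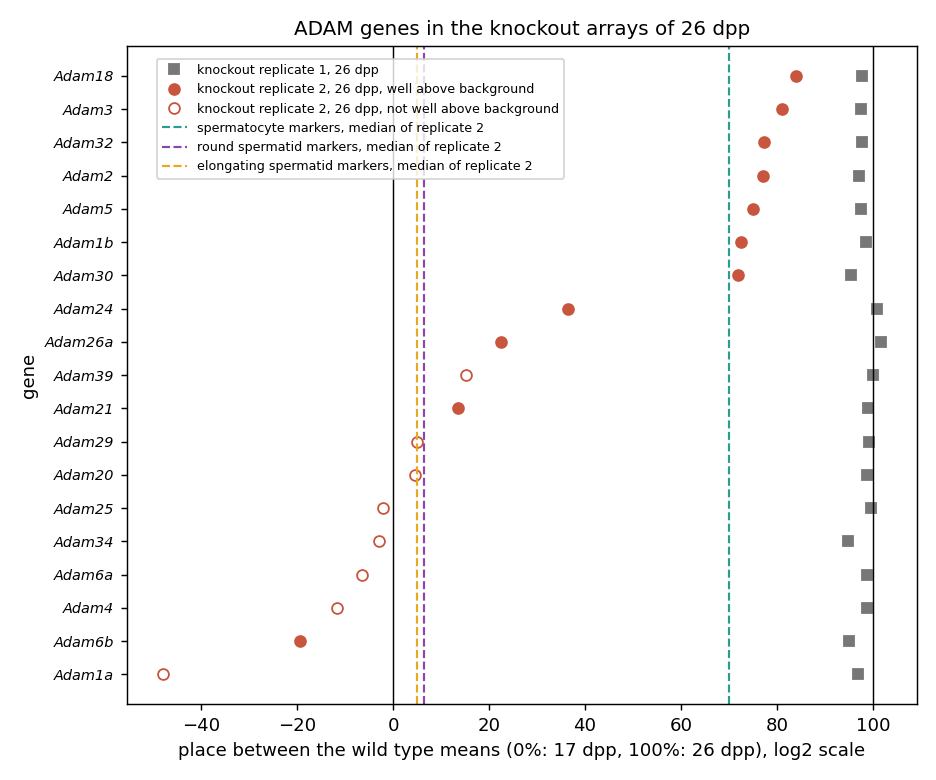
Place of the 2 knockout arrays of 26 dpp between the wild type means of 17 dpp (0%) and 26 dpp (100%) on the log2 scale, for the 19 ADAM genes with a wild type difference above 1. Squares are replicate 1 and circles replicate 2, open where it was not well above background and the place has no exact value; dashed lines are the medians of replicate 2 over markers of 3 germ cell stages. Squares lie near 100%, while filled circles run from 84.0% for Adam18 to −19.3% for Adam6b.

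The second question is whether the loss of Ip6k1 changed the family. At 17 dpp 0 of 31 ADAM genes passed between knockout and wild type (limma, adjusted p under 0.05; 0.0902% of all genes passed), and 0 had an unadjusted p under 0.05 (1.44% of all genes). The median difference of the members was −0.05, against 0.02 over all genes (0.05 and 0.03 with the floor). The smallest p-values belonged to Adam18 (1.62, SE 1.39), Adam24 (−0.89, SE 0.88) and Adam15 (−0.20, SE 0.29), each with a limma adjusted p of 1. The spread was wide for some members: Adam3 had a difference of −0.08 with a SE of 1.99. Of the arrays behind these values, replicate 1 of both genotypes for Adam18 and knockout replicate 1 for Adam3 were not well above background, and with the floor the differences were 1.06 and 0.69. The epididymis and adipocyte signal of the wild type arrays of this age, given above, lies in this comparison, and its part was not tested. Without knockout replicate 2 at 26 dpp, which enters through the shared spread, 0 passed as well (0.105% of all genes).

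At 26 dpp 0 of 31 passed (0.00752% of all genes), and 2 had an unadjusted p under 0.05 (2.46% of all genes). The median difference was −1.05 for the members and 0.08 for all genes, and without knockout replicate 2 it was −0.11 and −0.03. The 2 were Adam12 and Adam26b. Adam12 read −3.69 and −3.89 (wild type) and −3.31 and −2.28 (knockout), a difference of 1.00 (SE 0.38, limma adjusted p = 0.535). Both knockout arrays were above both wild type arrays, and without replicate 2 the difference was 0.48. The other 2 Adam12 probes were well above background on no array. Adam26b had a difference of −0.82 (SE 0.32, limma adjusted p = 0.535), which was −0.41 without replicate 2. Adam20 came next (limma adjusted p = 0.535). Neither Adam26b nor Adam20 was well above background on replicate 2. With the floor their differences were −0.78 and −2.94, and that of Adam20 was −0.11 without replicate 2.

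Knockout replicate 1 at 26 dpp followed the wild type arrays closely. For 20 of the 31 members it lay between the 2 wild type arrays, and its difference from their mean ran from −0.48 (Adam22) to 0.48 (Adam12). The share of all genes between these arrays was not counted. Over all genes it correlated with them at 0.992 and 0.989, so the closeness is not particular to the family. With replicate 2 left out 0 members passed (0.0376% of all genes). With replicate 1 left out instead, 17 members passed (45.2% of all genes), 3 higher and 14 lower (26.8% and 18.3%), so the result at this age rests on which array stands for the knockout. In both of these fits the knockout has 1 array at this age, which is assumed to vary like the other groups.

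Averaged over both ages 0 of 31 passed (0% of all genes), and 0 had an unadjusted p under 0.05 (2.16% of all genes). The differences with the smallest p-values were −0.47 (SE 0.23) for Adam26b, −1.13 (SE 0.62) for Adam24 and 0.47 (SE 0.27) for Adam12, and limma gave each an adjusted p of 0.833. For the difference of the knockout effect between ages 0 of 31 passed (0% of all genes), and 0 had an unadjusted p under 0.05 (1.89% of all genes). Its smallest p-values were those of Adam12 (1.05, SE 0.53), Adam34 (−4.06, SE 2.60) and Adam26b (−0.70, SE 0.46), and limma gave each an adjusted p of 0.781. The value of Adam34 rests in part on arrays that were not well above background. Without knockout replicate 2 at 26 dpp 0 passed in either comparison (0.00752% of all genes in each). Without knockout replicate 1 at 26 dpp 14 passed in the average (29.5% of all genes) and 15 in the difference (32.5%). A p above the threshold does not show that the genotypes are alike, and no tool other than limma was run.

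Genes that act on the same proteins were described from 4 lists. Of 15 genes needed for ADAM3 to mature or reach the sperm surface, 10 were higher and 0 lower at 26 dpp in wild type (18.9% and 26.1% of all genes). Their median difference was 4.96, against −0.46 for all genes. Prss55, a serine protease of testis, rose at least 466-fold (limma adjusted p = 0.0326), Cmtm2b, well above background on 1 of the 2 wild type arrays of 17 dpp, rose at least 668-fold (adjusted p = 0.00739) and Pdilt, a disulfide isomerase homologue that acts as a chaperone, rose 374-fold (8.55, SE 2.33, adjusted p = 0.0324). The chaperones Clgn (calmegin; 3.68, SE 0.77, adjusted p = 0.0179) and Calr3 (calsperin; 4.96, SE 1.56, adjusted p = 0.0443) also rose. Ace, of which a testis form is made in germ cells, had a difference of 2.17 (SE 0.90, adjusted p = 0.0903), and Tex101, a GPI-anchored germ cell protein, of −0.30 (SE 0.44, adjusted p = 0.591). In knockout 5 of the 15 were higher and 0 lower (7.62% and 8.18% of all genes), and without replicate 2 at 26 dpp 11 were higher and 1 lower (21.5% and 38.1%). Rnase10, which rose, is also an epididymis gene, and epididymis markers differed between arrays as given above.

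Of 18 genes that control sheddases (convertases, tissue inhibitors, iRhoms and tetraspanins), 1 was higher and 9 lower at 26 dpp in wild type (18.9% and 26.1% of all genes). Their median difference was −1.46, against −0.46 for all genes. Rhbdf2 (iRhom2), which brings Adam17 to the surface, fell 6.69-fold (−2.74, SE 0.57, adjusted p = 0.0174), Furin fell 4.40-fold (−2.14, SE 0.54, adjusted p = 0.0274) and Tspan14, a tetraspanin partner of Adam10, fell 4.32-fold (−2.11, SE 0.35, adjusted p = 0.0112). Rhbdf1 (iRhom1) had a difference of −1.69 (SE 0.66, adjusted p = 0.0774). Timp3, the tissue inhibitor that acts on Adam17, fell by 1.52 (SE 0.28, adjusted p = 0.0133), and Timp1 had a difference of −0.66 (SE 0.33, adjusted p = 0.137). The gene that rose was Frmd8, whose product stabilises the iRhoms (0.82, SE 0.23, adjusted p = 0.0335). In knockout 0 of the 18 were higher and 3 lower (7.62% and 8.18% of all genes), and without replicate 2 at 26 dpp 1 was higher and 12 lower (21.5% and 38.1%).

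Of 25 known substrates of ADAM sheddases 20 were tested, and 2 were higher and 10 lower in wild type (18.9% and 26.1% of all genes). Their median difference was −1.62, against −0.46 for all genes. Cdh1 (E-cadherin) fell 22.3-fold (−4.48, SE 0.91, adjusted p = 0.0166) and Erbb4 fell 7.64-fold (−2.93, SE 0.67, adjusted p = 0.0219), while Fasl rose at least 9.72-fold (3.44, SE 1.08, adjusted p = 0.0441). At 17 dpp the Cdh1 difference between knockout and wild type was −1.18 and did not pass. The part of the epididymis signal of the younger wild type arrays in its fall was not tested. Of 13 genes for integrins and LGI proteins, which ADAM proteins bind, 12 were tested. In wild type 0 were higher and 10 lower (18.9% and 26.1% of all genes), with a median of −1.77. Lgi3 fell at least 2.85-fold (adjusted p = 0.0343), Itgb3 fell 4.72-fold (−2.24, SE 0.38, adjusted p = 0.0114) and Lgi2 fell 4.08-fold (−2.03, SE 0.42, adjusted p = 0.0176). In knockout 3 genes of each of these 2 lists were lower and 0 higher (8.18% and 7.62% of all genes). Without replicate 2 at 26 dpp, 14 substrates were lower and 3 higher, and 9 integrin and LGI genes were lower and 0 higher (38.1% and 21.5% of all genes). In the comparisons of knockout with wild type 0 genes of the 4 lists passed at either age, with all arrays and without knockout replicate 2 at 26 dpp.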

How the data were processed

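RNA of 8 testes samples (4 groups, 2 arrays each) was hybridised to Agilent 1-colour arrays, all on a single slide. The 17 dpp arrays lay in a different row of it from the 26 dpp arrays, so row and age cannot be told apart. Nothing in the labels says whether the replicates were separate animals beyond the words biological replicates, so p-values measure the spread between these samples. The deposited scanner files hold per-spot intensity values (background-corrected, or processed; mean; and local background), made by the authors with Agilent Feature Extraction, per the submitters' processing notes, with no scaling between arrays. Other deposited columns are flags. The authors' value table holds log2 values, whose scale no label states. Set against the scanner files, every array's column in it followed log2 of the processed signal (correlation 0.999906 to 0.999946), and its offset corresponded to the array's 75th percentile over probes. Column medians were −3.69 and −3.69 (wild type) and −3.67 and −3.63 (knockout) at 17 dpp, and −3.59 and −3.64 (wild type) and −3.62 and −3.84 (knockout) at 26 dpp. How spots of a probe were combined there is unknown.

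Here processed signals were divided by the array's 75th percentile over non-control spots and put on the log2 scale, with outlier spots left out (103 to 200 per array; 0 saturated) and spots of a probe averaged. That percentile was 470 to 520 at 17 dpp and 485 to 692 at 26 dpp. Probes had to be flagged well above background on all arrays of some group, which left 37823 probes and 42 of the 50 ADAM probes. The kept probe of highest mean signal over all arrays stood for its gene, giving 26597 genes. Of all probes, 27509 took a current symbol by accession, 3549 had one in the file and 24623 kept the file's name.

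The tests used limma, version 3.58.1, under R 4.3.3 (files read with data.table, version 1.17.8), fitting 1 mean per group to all 8 arrays, with two-sided moderated tests on 4 residual degrees of freedom and 2.05 prior ones. Benjamini-Hochberg adjustment ran over all 26597 genes, with 0.05 as the threshold, in 6 comparisons. The code was tested on simulated data. Bounds for signals not well above background were also applied, after the values were seen, where only 1 array of a group was dim. The number of arrays limits the precision. Values per array were to be given for the 10 largest rises and 8 largest falls in wild type, the 5 brightest members not called, the 3 smallest p-values of each knockout comparison and 7 members of known role; of each other list, for up to 3 genes and genes named for their role. The members, lists and tests were chosen with earlier results of these data known. Alternatives covered scaling, background correction, the value table, the filter, the probe, the variance model, the replicate block, the samples in the fit and each array left out. Sequences are from the array files and from RefSeq (GRCm38.p6).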

Additional observations from a re-analysis of the deposited data

How the results depend on the processing

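Each count of ADAM genes called was recomputed under 12 other settings and with each array left out. Between ages in wild type the count of 22 was 18 to 28 under 11 of the settings. Over all genes the count was 11978, and 8792 to 19803 under these settings. For the members it was 12 of 17 when only probes well above background on all arrays were tested, where fewer members entered (10282 of 21161 genes). With an array left out it ran from 0 to 27: 0 without any 1 of the 4 wild type arrays, 12 without either knockout array of 17 dpp and 27 without either of 26 dpp. Between ages in knockout the count of 10 was 6 under that filter, 0 with array weights, 2 with the replicate block, 0 with only the compared groups in the fit, and 0 to 25 with an array left out; the cause was not tested. The knockout comparisons gave 0 under every one of these settings that was run; fitting only the compared groups was not run for the average and for the difference between ages, which need all 4. With an array left out the range was 0 to 0 at 17 dpp, 0 to 17 at 26 dpp, 0 to 14 averaged and 0 to 15 for the difference between ages. With the replicate number as a block, wild type gave 18 (8792 of all genes). In wild type the count over all genes moved in the same direction as that of the members when an array was left out. Numbers 1 and 2 pair no samples by design, and deviations of samples with the same number correlated at −0.40 to 0.11. For single named genes 830 values kept their direction and side of the threshold, 169 became weaker, 29 stronger and 3 reversed. The reversed values were 0.28 for Adam11 between ages in wild type with the mean of its probes, −0.47 for Adam25 between ages in knockout without replicate 1 at 26 dpp (up to 7.48 without replicate 2), and −0.14 for Adam18 at 17 dpp without knockout replicate 2 (up to 3.38 without replicate 1); the cause was not tested. The last 2 rest in part on arrays that were not well above background. The median difference of all genes between ages in wild type, −0.46, was −0.28 to −0.59 under the other scalings and background corrections. Signal near background limits the folds of 9 members at 17 dpp.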
